A study of Mus musculus with 4 samples.

Results

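The genes described here build the calcium cycle and the electrical currents of the heart muscle cell: calcium pumps, release channels and buffers, calcium channels and sensors, and sodium, potassium and pacemaker channel subunits. All probes whose platform gene symbol was one of 37 such genes were taken from the deposited value table, which gave 70 of 25697 probes. They covered 34 genes, since Itpr1, Kcnj11 and Hcn4 had no probe under these names. Of the 70 probes, 31 probes of 25 genes were detected on at least 1 array and 26 on all 4.

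In each heartbeat, calcium that enters through L-type channels opens ryanodine receptors on the sarcoplasmic reticulum (SR), the internal calcium store, and the released calcium starts contraction. Relaxation follows as the SR pump SERCA2a, restrained by phospholamban, and the sodium-calcium exchanger remove calcium again, while potassium currents end the action potential. Remodelling of these genes is a known feature of the stressed and failing heart, and mineralocorticoid receptor signalling is known to act on cardiac calcium and potassium currents.

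Whole hearts came from C57Bl6 mice of 8 to 9 weeks, all with 1 kidney removed and all with floxed alleles of the mineralocorticoid receptor (MR flox/flox), so that the controls carried them too. CM-MRKO mice also carried MLC2v Cre, which removes the receptor from cardiomyocytes through the promoter of the ventricular myosin light chain, and they received DOC/salt (deoxycorticosterone with salt) or vehicle for 8 days. Mice without Cre (WT) received DOC/salt or vehicle in the same way. Each group is a pool of RNA from 8 animals on 1 Illumina bead array, so no difference between 2 arrays has a replicate and none was tested.

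Values are given as deposited bead intensities, which still hold a background of about 100 units, and as log2 differences after background correction and quantile normalization, the first named group minus the second. A probe counted as detected above the level that 1% of odorant, vomeronasal and taste receptor probes reached, at 121.8 on the CM-MRKO DOC/salt array, 119.9 on CM-MRKO vehicle, 113.7 on WT DOC/salt and 108.8 on WT vehicle. A difference was counted from 1.5-fold on, among probes detected on at least 1 of the arrays compared. On the WT vehicle array 4.84% of all 8754 detected named probes were 1.5-fold or more under every other array, against 0.0571% on CM-MRKO DOC/salt, 0.0114% on CM-MRKO vehicle and 0.126% on WT DOC/salt. Every comparison with WT vehicle rests on that array. No probe carried the name Nr3c2, the receptor gene, so the values offer no check on the genotype labels. The tissue label was met by the cardiomyocyte markers, of which 9 of 9 genes with a probe were detected, with summed intensities of 129679.1 on CM-MRKO DOC/salt, 121001.7 on CM-MRKO vehicle, 107801.5 on WT DOC/salt and 96540.2 on WT vehicle. In whole-heart RNA, fewer cells of a type and less RNA per cell cannot be told apart.

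**Figure D1:**
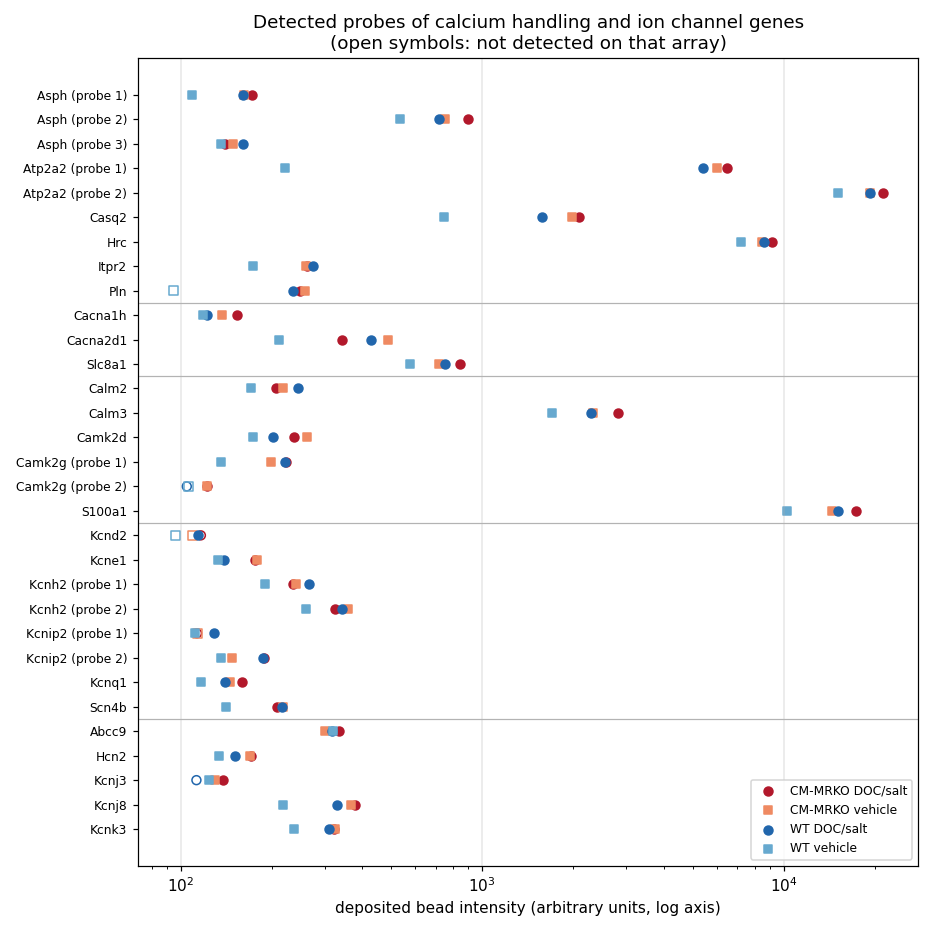
Deposited bead intensity (log axis) of the 31 detected probes on the CM-MRKO DOC/salt, CM-MRKO vehicle, WT DOC/salt and WT vehicle arrays, with open symbols where a probe was not detected and lines between the roles. The light blue WT vehicle square lies to the left of the other 3 symbols on 28 of the 31 rows and furthest away for Atp2a2 probe 1, where it reads 222.0 against 5402.1 to 6466.1.

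On the deposited scale WT vehicle was the dimmest array for 28 of the 31 detected probes, or 90.3%, and likewise for 93.0% of all detected named probes. After normalization it was the dimmest for 11 of the 31, or 35.5%, against 33.0% of all. The calcium and channel probes thus shared in an array-wide dimness. On normalized values 2 of the 31 (6.45%), of Atp2a2 and Pln, lay 1.5-fold or more under every other array on WT vehicle. Among all detected named probes this share was 4.84%, so the count of 2 does not separate these genes from the background.

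Among the SR genes, 2 probes stood far below the rest on WT vehicle alone, 1 of them for Atp2a2 and 1 for Pln. Atp2a2 encodes SERCA2, the pump that refills the SR. Its probe 1 (ILMN_1239742) read 6466.1 on CM-MRKO DOC/salt, 6010.7 on CM-MRKO vehicle and 5402.1 on WT DOC/salt, against 222.0 on WT vehicle. The 3 other arrays lay close together, whereas WT vehicle was 21.0-fold below WT DOC/salt and 22.4-fold below CM-MRKO vehicle after normalization. Its probe 2 (ILMN_1245425) read 21344.0 on CM-MRKO DOC/salt, 19263.9 on CM-MRKO vehicle, 19380.6 on WT DOC/salt and 15158.2 on WT vehicle. There the WT vehicle array was within 1.06-fold of WT DOC/salt and 1.01-fold of CM-MRKO vehicle. Thus 1 probe of this gene was far lower on WT vehicle and the other was nearly level. The platform annotation ties both to the same RefSeq transcript. On the arrays other than WT vehicle both probes differed little, with DOC/salt responses in CM-MRKO hearts of 0.05 for each probe. The genotype differences under DOC/salt were 0.14 for probe 1 and -0.06 for probe 2.

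The gap between the Atp2a2 probes was the widest measured. In the DOC/salt response of WT hearts their log2 differences lay 4.30 apart, which ranked 1 among 1086 genes with 2 probes detected on both arrays, where the median gap was 0.27 and 174 genes had probes 1.5-fold or more apart. In the vehicle comparison of the genotypes the gap was 4.51 and again ranked 1, among 1083 genes. In the DOC/salt response of CM-MRKO hearts it ranked 1253 of 1254. Of 1064 genes with 2 probes detected on all 4 arrays, 57 had 1 probe, and not the other, under every other array by 1.5-fold on WT vehicle, and 2 had both. On CM-MRKO DOC/salt, CM-MRKO vehicle and WT DOC/salt 1, 0 and 2 genes had 1 such probe. Myh6, the main myosin heavy chain of the adult mouse heart, was a further example from the marker list. Its dimmer probe read 287.2 on CM-MRKO DOC/salt, 277.1 on CM-MRKO vehicle and 316.6 on WT DOC/salt, against an undetected 108.6 on WT vehicle. Its brighter probe read 16809.2 on CM-MRKO DOC/salt, 15804.4 on CM-MRKO vehicle, 14751.6 on WT DOC/salt and 10950.1 on WT vehicle.

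**Figure D2:**
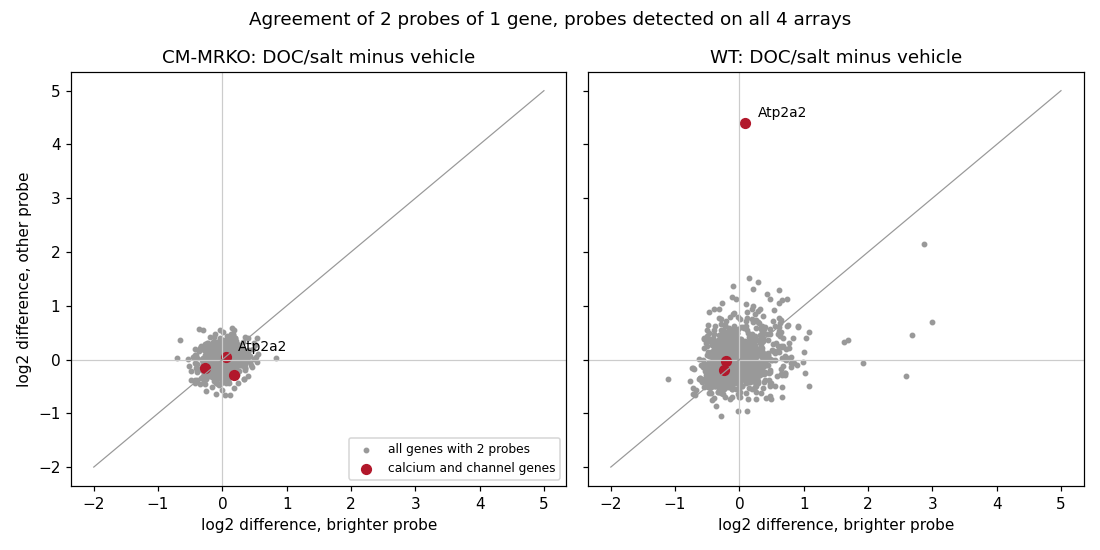
Each point is a gene with 2 probes detected on all 4 arrays (1064 genes), with the log2 difference of the brighter probe (x axis) against that of the other probe (y axis), for DOC/salt minus vehicle in CM-MRKO (left) and WT hearts (right). Calcium and channel genes are red, the diagonal marks equal differences, and Atp2a2 lies at 0.05 and 0.05 on the left but at 0.09 and 4.39 on the right.

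Pln encodes phospholamban, the small membrane protein that restrains SERCA2. Its only probe read 248.1 on CM-MRKO DOC/salt, 258.4 on CM-MRKO vehicle and 234.9 on WT DOC/salt, against an undetected 94.6 on WT vehicle. The first 3 arrays were close together and WT vehicle was at background. With the undetected side held at the lowest normalized value of a detected probe, Pln was at least 2.56-fold higher in WT DOC/salt than in WT vehicle, and at least 2.86-fold higher under vehicle in CM-MRKO than in WT hearts. These bounds hold for the normalized scale alone. The deposited values, background included, differed by 2.48-fold and 2.73-fold, and without background correction the log2 differences were 1.15 and 1.27. With a single probe there is no second reading of Pln like that of Atp2a2. Casq2 encodes calsequestrin, which stores calcium inside the SR. It read 2091.6 on CM-MRKO DOC/salt, 1977.4 on CM-MRKO vehicle, 1578.0 on WT DOC/salt and 748.5 on WT vehicle. WT vehicle was again the lowest, and CM-MRKO vehicle exceeded it 1.74-fold after normalization and 2.64-fold on the deposited values. WT DOC/salt exceeded it 1.42-fold after normalization, which was not counted, and 2.11-fold on the deposited values, so that this call turned with the scaling. Some markers of other cells were also far dimmer on WT vehicle. Of 8 detected fibroblast probes 3 lay 1.5-fold under every other array there, of Dcn (decorin) and Pdgfra, against 4.84% of all detected named probes. So did 3 of 5 blood cell probes, of Hbb-bt, S100a8 and S100a9, and 1 of 11 cardiomyocyte probes, of Myh6. The summed intensities of the fibroblast list were 7491.1 on CM-MRKO DOC/salt, 7565.9 on CM-MRKO vehicle, 7160.5 on WT DOC/salt and 2325.9 on WT vehicle. Dcn carried most of that gap, its brighter probe reading 4129.8 on CM-MRKO DOC/salt, 4135.2 on CM-MRKO vehicle, 3886.7 on WT DOC/salt and 395.2 on WT vehicle. Lum (-0.09), Tcf21 (-0.34), Col1a1 (-0.26) and Col1a2 (-0.26) went the other way in CM-MRKO vehicle minus WT vehicle. The blood cell list summed to 25748.0 on CM-MRKO DOC/salt, 22194.0 on CM-MRKO vehicle, 21074.8 on WT DOC/salt and 20190.0 on WT vehicle. Hba-a1 made up most of this sum, at 19190.3 on WT vehicle. It went the other way, at -0.18 in the WT response and -0.23 in CM-MRKO vehicle minus WT vehicle. The remaining detected blood marker, Alas2, was at 0.93 and 0.86. The part of these cells in the Atp2a2, Pln and Casq2 values was not tested.

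The upstream sequences of Pln and Casq2 are shown because these were the SR genes that were dim on WT vehicle and had a RefSeq promoter entry, and because the deleted receptor acts on DNA. Each line gives the 250 bases before the annotated start, 5′ to 3′, on GRCm38.p6, at chr10:53337436-53337685 (+) for Pln and chr3:102086165-102086414 (+) for Casq2.

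Pln: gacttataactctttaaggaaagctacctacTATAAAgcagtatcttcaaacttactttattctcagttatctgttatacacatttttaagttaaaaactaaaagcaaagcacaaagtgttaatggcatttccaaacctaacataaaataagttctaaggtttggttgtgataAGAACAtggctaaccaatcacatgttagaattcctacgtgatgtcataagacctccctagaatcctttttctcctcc
Casq2: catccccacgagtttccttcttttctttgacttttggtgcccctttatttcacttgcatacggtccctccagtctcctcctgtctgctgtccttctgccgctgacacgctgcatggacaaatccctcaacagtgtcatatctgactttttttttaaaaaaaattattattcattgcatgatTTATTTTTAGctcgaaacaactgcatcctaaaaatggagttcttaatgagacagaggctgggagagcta

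Capitals mark motif matches, searched on both strands. In Pln they are a TATAAA from 219 to 214 bases before the start and, on the other strand, the hexamer TGTTCT from 77 to 72 bases before it; corticosteroid receptors bind pairs of such hexamers. In Casq2 they are a match to the MEF2 motif, a site of muscle transcription factors, from 69 to 60 bases before the start. The paired site, AGAACA and TGTTCT with 3 bases between them, was in 0 of the 28 promoters of the 25 calcium and channel genes with an entry, and in 3 of all 32851 promoters. The hexamer, which the paired site contains, was in 4 of the 28 (Pln, Cacna1c, Cacnb2 and Scn4b) and in 16.1% of all. MEF2 was in 1 of the 28 and 2.92% of all, TATAAA in 1 and 12.4%, and the CArG box, the site of serum response factor, in 0 and 1.47%. These matches describe letters in this window and nothing further.

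The remaining SR genes stayed under 1.5-fold in every pairwise comparison. Hrc, the histidine-rich calcium binder of the SR, read 9151.1 on CM-MRKO DOC/salt, 8444.1 on CM-MRKO vehicle, 8615.7 on WT DOC/salt and 7203.8 on WT vehicle. Its log2 differences lay between -0.29 and 0.02. Itpr2, an inositol trisphosphate receptor, had 1 detected probe of 3, at 262.6 on CM-MRKO DOC/salt, 259.7 on CM-MRKO vehicle, 275.5 on WT DOC/salt and 174.0 on WT vehicle, with differences of -0.24 to 0.25. Asph, whose gene yields an aspartyl hydroxylase and the SR anchor protein junctin, had 14 probes, of which 11 were undetected at 78.3 to 115.4. Its 3 detected probes did not move together.

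The Asph probes also stood apart between the genotypes under DOC/salt, on arrays other than WT vehicle. Probe 2 (ILMN_1259678), the brightest, read 895.4 on CM-MRKO DOC/salt and 719.3 on WT DOC/salt, a log2 difference of 0.24. Probe 3 (ILMN_2606990) read 140.6 on CM-MRKO DOC/salt and 160.6 on WT DOC/salt, a difference of -0.53. Their gap of 0.77 ranked 7 among 1249 genes, where 33 genes had probes 1.5-fold or more apart. On the deposited values probe 2 was at 0.32 and probe 3 at -0.19, closer together than after normalization. Probe 1 (ILMN_1233759) read 172.8 on CM-MRKO DOC/salt, 162.6 on CM-MRKO vehicle, 161.2 on WT DOC/salt and 109.2 on WT vehicle. It was high on 3 arrays and just above the detection limit on WT vehicle, with a WT response of 0.58 that reached no 1.5-fold difference, while probe 2 was at -0.24 and probe 3 at -0.20. The annotation gives probe 2 another transcript than probes 1 and 3.

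**Figure D3:**
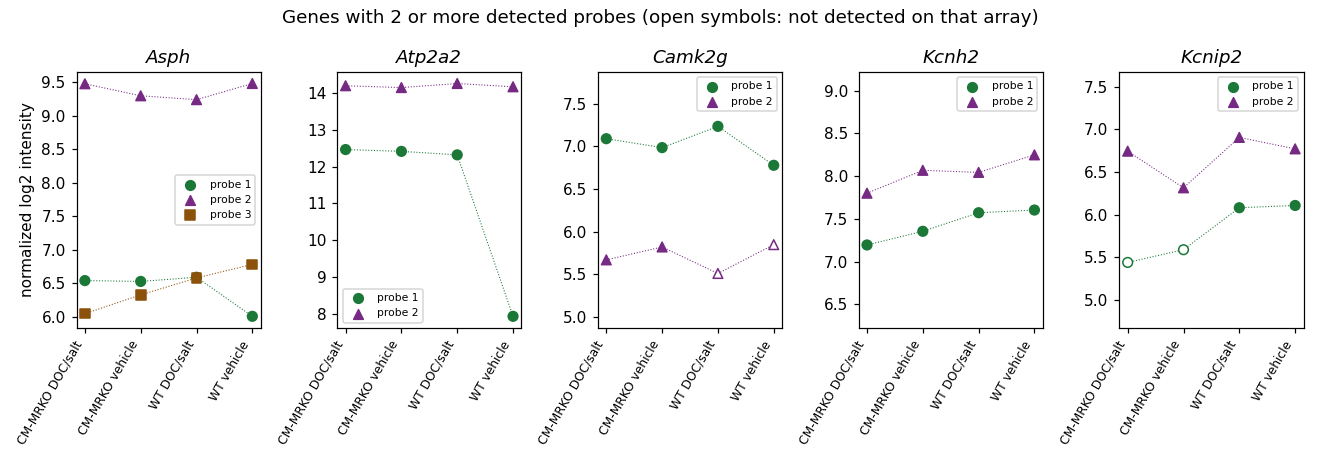
Normalized log2 intensity of each detected probe of the 5 genes with 2 or more detected probes on the 4 arrays; each panel has its own axis range, open symbols were not detected, and the dotted lines only join symbols of a probe. Atp2a2 probe 1 drops to 7.93 on WT vehicle where probe 2 stays at 14.17, while both Kcnh2 probes are lowest on CM-MRKO DOC/salt and highest on WT vehicle after normalization.

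Of the channels and transporters for calcium in the cell membrane, Cacna2d1, the auxiliary subunit that brings L-type channels to the surface, differed most. It read 343.6 on CM-MRKO DOC/salt, 485.7 on CM-MRKO vehicle, 426.4 on WT DOC/salt and 211.6 on WT vehicle. It was highest on CM-MRKO vehicle and lowest on WT vehicle, so DOC/salt went with a lower value in CM-MRKO hearts (-0.69, 1.61-fold lower) and a higher one in WT hearts (0.57, 1.48-fold). CM-MRKO vehicle exceeded WT vehicle 1.69-fold. On the deposited values the fold was 1.41 for the CM-MRKO response, 2.02 for the WT response and 2.30 for the vehicle comparison, so that the first of these fell short of 1.5-fold and the second passed it. After normalization, the difference of the responses, CM-MRKO minus WT, was -1.26. Slc8a1, the sodium-calcium exchanger NCX1, read 841.0 on CM-MRKO DOC/salt, 718.2 on CM-MRKO vehicle, 751.3 on WT DOC/salt and 577.7 on WT vehicle. Cacna1h, a T-type calcium channel, read 153.2 on CM-MRKO DOC/salt, 136.5 on CM-MRKO vehicle, 122.0 on WT DOC/salt and 118.4 on WT vehicle. Both were brightest on CM-MRKO DOC/salt on the deposited scale and highest on WT vehicle after normalization. Neither reached 1.5-fold, with log2 differences between -0.37 and 0.15 for Slc8a1 and between -0.40 and 0.32 for Cacna1h.

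No calcium sensor or kinase reached 1.5-fold in any comparison, over 6 detected probes of 5 genes. S100a1, a calcium sensor that raises SERCA2 and ryanodine receptor activity, read 17407.3 on CM-MRKO DOC/salt, 14434.3 on CM-MRKO vehicle, 15091.8 on WT DOC/salt and 10259.3 on WT vehicle. Its log2 differences lay between 0.00 and 0.21. Calm2 and Calm3 are separate genes for the same calmodulin protein, and they lay on opposite sides of 0 under DOC/salt. Calm2 read 207.3 on CM-MRKO DOC/salt and 244.3 on WT DOC/salt (-0.49), and Calm3 read 2816.0 on CM-MRKO DOC/salt and 2287.5 on WT DOC/salt (0.19). Camk2d, the main calmodulin-dependent kinase of the heart, had 1 detected probe of 4, at 236.7 on CM-MRKO DOC/salt, 261.3 on CM-MRKO vehicle, 202.2 on WT DOC/salt and 174.2 on WT vehicle. After normalization its DOC/salt responses were alike, -0.32 in CM-MRKO and -0.34 in WT hearts. On the deposited values they had opposite signs, with log2 differences of -0.14 in CM-MRKO and 0.215 in WT hearts. Camk2g, a second isoform gene of this kinase, had 1 probe at 223.2 on CM-MRKO DOC/salt, 199.8 on CM-MRKO vehicle, 221.3 on WT DOC/salt and 136.2 on WT vehicle. Its other probe was detected on the CM-MRKO arrays alone, at 122.3 with DOC/salt and 122.6 with vehicle, against 104.7 on WT DOC/salt and 105.8 on WT vehicle. The detected readings lay close to the detection limits of 121.8 and 119.9. After normalization the genotype differences of this probe were 0.16 under DOC/salt and -0.03 under vehicle, so its detection does not order the genotypes.

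Among the voltage-gated channels, Kcnip2, the subunit that brings Kv4 channels of the transient outward current to the membrane, was the gene with a counted difference. Its probe 1 (ILMN_2680959) was undetected at 113.2 on CM-MRKO DOC/salt and 113.4 on CM-MRKO vehicle, and read 128.9 on WT DOC/salt and 111.9 on WT vehicle. The genotype difference under DOC/salt was -0.64 with normalized values, 1 of them undetected, while the deposited values differed by 1.14-fold. Its brighter probe 2 (ILMN_3124037) read 189.3 on CM-MRKO DOC/salt, 148.3 on CM-MRKO vehicle, 187.2 on WT DOC/salt and 135.6 on WT vehicle. That probe was brighter with DOC/salt in both genotypes, by 0.43 in CM-MRKO and 0.13 in WT hearts, and its genotype difference under DOC/salt was -0.16. The Kv4 channel gene Kcnd2 was detected on WT DOC/salt alone, at 114.1, against 116.6 on CM-MRKO DOC/salt, 109.3 on CM-MRKO vehicle and 95.8 on WT vehicle. The detection limit was higher on CM-MRKO DOC/salt, so these values do not order the groups.

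Kcnh2, the channel of the rapid delayed rectifier current, had 2 probes that went together. Its brighter probe read 323.7 on CM-MRKO DOC/salt, 358.7 on CM-MRKO vehicle, 343.9 on WT DOC/salt and 260.7 on WT vehicle. Its other detected probe read 234.9 on CM-MRKO DOC/salt, 240.3 on CM-MRKO vehicle, 266.3 on WT DOC/salt and 190.5 on WT vehicle. After normalization all 8 pairwise log2 differences of these probes were at or below -0.03, down to -0.38, and the gap between the probes was 0.07 to 0.17. The sign turned with the scaling in the comparisons with WT vehicle. On the deposited values the brighter probe was at 0.40 in the WT response and 0.46 in CM-MRKO vehicle minus WT vehicle. The other detected probe was at 0.48 and 0.335. Kcnq1 and Kcne1 encode the channel and the auxiliary subunit of the slow delayed rectifier. Kcnq1 read 160.1 on CM-MRKO DOC/salt, 145.4 on CM-MRKO vehicle, 140.2 on WT DOC/salt and 117.1 on WT vehicle, with differences of -0.02 to 0.10. Kcne1 had 1 detected probe of 4, at 175.9 on CM-MRKO DOC/salt, 179.4 on CM-MRKO vehicle, 139.6 on WT DOC/salt and 132.5 on WT vehicle. The CM-MRKO arrays exceeded the WT arrays on the deposited scale, and after normalization the genotype difference was 0.31 under DOC/salt and 0.05 under vehicle. Scn4b, an auxiliary subunit of the cardiac sodium channel, read 209.2 on CM-MRKO DOC/salt, 218.9 on CM-MRKO vehicle, 217.3 on WT DOC/salt and 141.3 on WT vehicle. WT vehicle was lowest, and the log2 differences were between -0.25 and 0.32.

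In the last role, the inward rectifier, ATP-sensitive, background and pacemaker channels, 2 genes were counted as lower in WT hearts after DOC/salt. Abcc9 encodes SUR2, the regulatory subunit of ATP-sensitive potassium channels in heart and vascular smooth muscle. Its detected probe read 336.1 on CM-MRKO DOC/salt, 300.8 on CM-MRKO vehicle, 317.7 on WT DOC/salt and 318.8 on WT vehicle. The deposited values were almost level, whereas after normalization WT vehicle was highest, with log2 differences of -0.72 for WT DOC/salt and -0.86 for CM-MRKO vehicle against it. Abcc9 was the 1 calcium or channel probe that lay at least 1.5-fold above all other arrays on WT vehicle, as 0.514% of all detected named probes did. Kcnj3, a subunit of the acetylcholine-gated channel of atrial and nodal cells, read 138.1 on CM-MRKO DOC/salt, 130.3 on CM-MRKO vehicle, an undetected 112.7 on WT DOC/salt and 123.7 on WT vehicle. The count rests on an undetected value, and the deposited values of WT DOC/salt and WT vehicle differed by 1.10-fold.

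Of the atrial markers 2 of 6 genes with a probe were detected, with summed list intensities of 20766.6 on CM-MRKO DOC/salt, 19151.7 on CM-MRKO vehicle, 12681.9 on WT DOC/salt and 12073.6 on WT vehicle. Nppa, the natriuretic peptide gene, made up nearly all of this sum, at 19892.5 on CM-MRKO DOC/salt, 18315.6 on CM-MRKO vehicle, 11966.8 on WT DOC/salt and 11352.6 on WT vehicle. After normalization both detected atrial markers were below 0 in the WT response, as Kcnj3 was, with Nppa at -0.35 and Myl4 at -0.77. On the deposited values Nppa was higher on WT DOC/salt than on WT vehicle. Between the genotypes under DOC/salt Nppa was at 0.57, Myl4 at 0.63 and Kcnj3 at 0.27. Under vehicle Nppa was at 0.19, Myl4 at -0.21 and Kcnj3 at -0.50. Myl7 and Sln were undetected on every array. The part of atrial cells in the Kcnj3 values was not tested. Kcnj8 encodes Kir6.1, the pore of the vascular ATP-sensitive channel that pairs with SUR2. It read 378.3 on CM-MRKO DOC/salt, 367.1 on CM-MRKO vehicle, 328.8 on WT DOC/salt and 217.8 on WT vehicle, with differences of -0.03 to 0.23. Abcc9 and Kcnj8 thus differed in how WT vehicle stood to the other arrays. Markers of mural cells, which hold this channel in vessel walls, were detected for 8 of 9 genes. Their summed intensities were 18456.6 on CM-MRKO DOC/salt, 22212.3 on CM-MRKO vehicle, 14336.9 on WT DOC/salt and 13858.6 on WT vehicle. After normalization 1 of 13 mural probes lay above 0 in the WT response, and the median was -0.39. There 2 of the 13, of Acta2 and Mcam, were counted as lower, as Abcc9 was, against 4.05% of all named probes. In CM-MRKO vehicle minus WT vehicle, where Abcc9 was also counted as lower, 6 of the 13 lay above 0. The median there was -0.10, and 0 were counted. The part of mural cells in the Abcc9 and Kcnj8 values was not tested. Kcnk3, a background potassium channel, read 321.7 on CM-MRKO DOC/salt, 325.0 on CM-MRKO vehicle, 310.0 on WT DOC/salt and 237.3 on WT vehicle. Hcn2, a pacemaker channel, read 170.4 on CM-MRKO DOC/salt, 169.8 on CM-MRKO vehicle, 151.4 on WT DOC/salt and 134.3 on WT vehicle. Both stayed between -0.29 and 0.06 on the log2 scale.

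**Figure D4:**
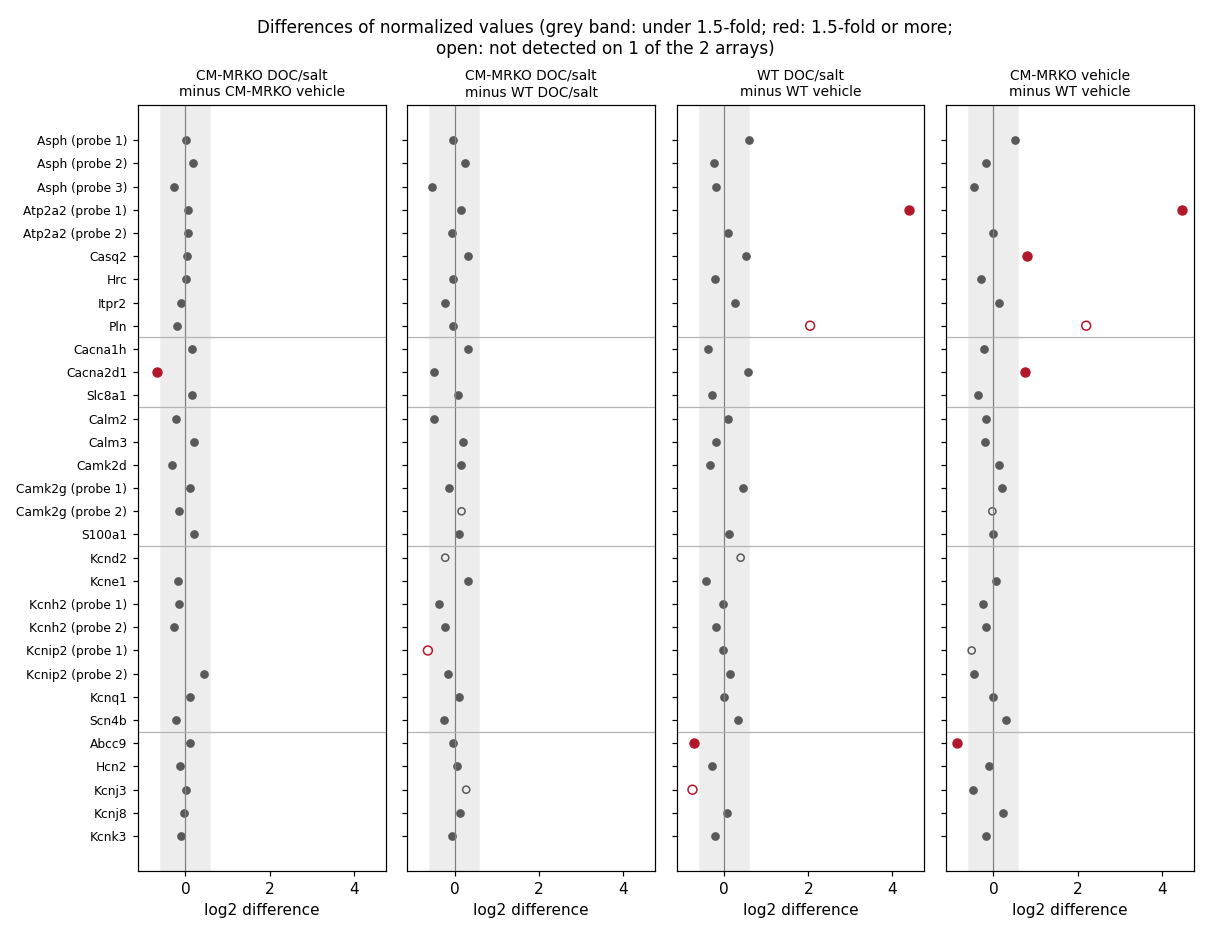
Log2 difference of normalized values (x axis) of each detected probe (rows, in the order of roles) in the 4 pairwise comparisons, with the range under 1.5-fold in grey and larger differences in red. The 2 panels that use the WT vehicle array hold 9 of the 11 red points, among them Atp2a2 probe 1 at 4.39 and 4.49; open symbols, such as Pln in both, have an undetected side and no exact position.

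Counted over all roles, DOC/salt in CM-MRKO hearts left the calcium and channel genes nearly level. Of 29 probes 0 were 1.5-fold higher and 1 lower (Cacna2d1), against 0.623% higher and 0.517% lower of all 8511 named probes, and the median log2 difference was 0.01 against 0.01 for all. Between the genotypes under DOC/salt 0 of 31 probes were higher and 1 lower (Kcnip2 probe 1), against 0.913% and 1.16% of 8544, with a median of -0.04 against 0.01 for all. The technical spread of a probe, from the gaps between 2 probes of the same gene, was 0.17 in the first of these comparisons and 0.19 in the second, and it holds no spread between animals. A count of 1 probe in about 30 does not separate these genes from the background.

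The comparisons with WT vehicle held more, for all named probes as well as for these. The calcium and channel shares were 6.67% higher and 6.67% lower in the WT response. They were 13.3% and 3.33% between the genotypes under vehicle, and 6.45% and 9.68% in the difference of responses. Counts of at most 4 of about 30 probes in a direction do not separate these genes from the background. In WT hearts, DOC/salt went with 2 of 30 probes higher (Atp2a2 probe 1 and Pln) and 2 lower (Abcc9 and Kcnj3), against 9.46% higher and 4.05% lower of 8133, with a median of -0.02 against -0.04 for all. In CM-MRKO vehicle against WT vehicle 4 of 30 were higher (Atp2a2 probe 1, Pln, Casq2 and Cacna2d1) and 1 lower (Abcc9), against 7.97% and 3.0% of 8102, with a median of -0.07 against -0.04. In the difference of the DOC/salt responses 2 of 31 were higher (Abcc9 and Kcnj3) and 3 lower (Atp2a2 probe 1, Pln and Cacna2d1), against 6.83% and 10.7% of 8754, with a median of -0.04 against 0.04. These 3 comparisons share the WT vehicle array, and the technical spread was 0.33 in the first, 0.33 in the second and 0.37 in the third. With arrays scaled to the same median over all probes, the median of all named probes in the WT response moved to 0.40. Of these 8133 probes 2539 were then higher and 13 lower. The calcium and channel probes counted as 10 of 30 higher and 0 lower, with Abcc9 at -0.18 and Kcnj3 at -0.38. Atp2a2 probe 1 and Pln stayed at least 1.5-fold higher in WT DOC/salt than in WT vehicle under each of the 5 other scalings and corrections, and so did those 2, Casq2 and Cacna2d1 in CM-MRKO vehicle against WT vehicle.

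An additive fit of genotype and treatment over all 4 arrays (limma, Benjamini-Hochberg over 9272 probes) called 0 of the 31 probes for either term at an adjusted p of 0.05. It called 1 of all probes (0.0108%) for genotype and 0 (0.00%) for treatment. At an unadjusted p of 0.05 it called 5 of the 31 for genotype (Atp2a2 probe 1, Pln, Casq2, Asph probe 3 and Kcnip2 probe 1) and 2 for treatment (Atp2a2 probe 1 and Pln), against 4.54% and 5.04% of all probes. Atp2a2 probe 1 had the lowest adjusted limma p among them, 0.572 for each term, with estimates of 2.32 ± 0.56 for genotype and 2.22 ± 0.56 for treatment (log2, SE). The fit divides a value that is low on WT vehicle alone between both terms, and its 1 residual degree of freedom is the interaction. With probes detected on all 4 arrays only, Atp2a2 probe 1 passed for both terms, with adjusted limma p of 0.0267 for genotype and 0.0369 for treatment. Of all 7219 probes in that fit 5 passed for genotype and 4 for treatment. Apart from WT vehicle the arrays differed little for this probe, by 0.14 between the genotypes under DOC/salt and 0.05 in the CM-MRKO response.

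Several genes central to the calcium cycle could not be followed. The 39 undetected probes read between 73.7 and 118.7, and 9 genes had no other probe. They were Ryr2 (the ryanodine receptor), Trdn (triadin), Fkbp1b (the ryanodine receptor's binding protein FKBP12.6), Cacna1c (the L-type pore), Cacna1g (a T-type pore), Cacnb2 (the L-type beta subunit), Kcna5, Kcnj2 and Kcnj5 (potassium channels). Ryr2 read 95.2 on CM-MRKO DOC/salt, 90.2 on CM-MRKO vehicle, 80.2 on WT DOC/salt and 85.5 on WT vehicle. These readings say that the probes gave no signal above background, not that the genes were silent.

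The other genes of the pathway, a list of 68, had 95 probes for 59 genes, of which 33 probes of 26 genes were detected. DOC/salt in CM-MRKO hearts gave 0 of 31 higher and 0 lower, against 0.623% and 0.517% of all named probes. Between the genotypes under DOC/salt 0 of 31 were higher and 1 lower (3.23%), against 0.913% and 1.16% of all. The lower probe was of Jph2 (junctophilin, which holds the SR to the membrane), at an undetected 105.3 on CM-MRKO DOC/salt and 116.5 on WT DOC/salt. In WT hearts 3 of 31 (9.68%) were higher after DOC/salt and 1 (3.23%) lower, against 9.46% and 4.05% of all. In CM-MRKO vehicle against WT vehicle 1 of 29 was higher and 1 lower (3.45% each), against 7.97% and 3.0% of all. The difference of responses held 3 of 33 probes (9.09%) above and 4 (12.1%) below the threshold, against 6.83% and 10.7% of all. Counts this small do not separate the list from the background.

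Sri encodes sorcin, a calcium sensor that binds the ryanodine receptor, and 1 of its 3 detected probes was low on WT vehicle. Its probe ILMN_2600537 read 452.9 on CM-MRKO DOC/salt, 401.2 on CM-MRKO vehicle and 368.2 on WT DOC/salt, against 161.3 on WT vehicle, with log2 differences of 0.95 for the WT response and 1.07 for CM-MRKO vehicle against WT vehicle. Its brightest probe read 516.6 on CM-MRKO DOC/salt, 465.5 on CM-MRKO vehicle, 548.7 on WT DOC/salt and 319.5 on WT vehicle, with differences of 0.19 and -0.11 in the same comparisons. The third detected probe read 180.0 on CM-MRKO DOC/salt, 181.9 on CM-MRKO vehicle, 158.0 on WT DOC/salt and 150.8 on WT vehicle, with differences of -0.50 and -0.26. The gap of 1.18 between the 2 brightest in the vehicle comparison ranked 20 among 1083 genes. Lower values came from Micu2 (a regulator of mitochondrial calcium uptake) in WT hearts after DOC/salt, at 363.8 against 345.8 on WT vehicle and -0.63 after normalization, and from Srl (sarcalumenin, an SR calcium binder) in CM-MRKO vehicle, at 225.6 against 215.1 on WT vehicle and -0.63. Both had higher deposited intensities where the normalized value was lower. A second Micu2 probe differed by 0.01. The other higher probes in WT hearts after DOC/salt were not detected on WT vehicle. Atp2a3 (the SERCA3 pump) read 132.9 on WT DOC/salt and 95.8 on WT vehicle, and Itpr3 (an inositol trisphosphate receptor) 116.2 on WT DOC/salt and 92.2 on WT vehicle.

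In the difference of responses Cacna1d (an L-type pore of atrial and nodal cells, 0.84), Micu2 (0.60) and Calr (the calcium binder calreticulin, 0.59) were higher among probes detected on all 4 arrays. Sri (-0.84), Tmem38b (an SR potassium channel, -0.70) and a second Atp2a3 probe (-0.64) were lower, as was Abcc8 (-0.90, a regulatory subunit of ATP-sensitive channels), which was undetected on WT vehicle at 100.1. The second detected Tmem38b probe was at 0.09, the second Micu2 probe at -0.19, and the other Sri probes were at 0.34 and -0.12. On the deposited values Calr was higher with DOC/salt in both genotypes. It read 419.2 on CM-MRKO DOC/salt, 301.9 on CM-MRKO vehicle, 356.3 on WT DOC/salt and 254.2 on WT vehicle. So was the first Micu2 probe, at 430.2, 415.5, 363.8 and 345.8 in the same order. The differences given for Calr and Micu2 therefore hold for the normalized scale.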

How the data were processed

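The deposited table held linear bead intensity values for 4 single-channel Illumina arrays, 1 per pool. No normalization between arrays is visible, with array medians of 102.7, 98.6, 92.6 and 91.5 (CM-MRKO DOC/salt, CM-MRKO vehicle, WT DOC/salt, WT vehicle). The submitters' processing notes name Partek; no other step is recorded in the labels. A second table was not used, because its 4 columns match no sample label. Groups come from the source labels; the protocol text names vehicle for all samples.

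Of 25697 probes, 23978 had 1 gene symbol and 1719 none. Values were corrected with normexp (maximum likelihood, offset 16), quantile normalized and log2 transformed in limma 3.58.1 under R 4.3.3. Detection used 1341 chemosensory receptor probes. For the technical spread, a gene's 2 brightest probes were subtracted, and the SD of these gaps was divided by √2. For a bound, an undetected value was raised to that of the dimmest detected probe where it lay lower. Scripts were tested on simulated data. Promoters are RefSeq's; gene symbols matched 25 of the 37 genes there.

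All 37 genes were described. Genes of the other list were named where past 1.5-fold and detected on every array of the comparison; Jph2, Itpr3, Abcc8 and the dimmer Atp2a3 probe were named outside that rule, after their values were seen. The genes, lists and tests were chosen with earlier results of these data known. With 4 arrays precision is limited by their number.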

Additional observations from a re-analysis of the deposited data

How the results depend on the processing

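With no background correction, DOC/salt in CM-MRKO hearts and the genotype difference under DOC/salt each had 0 lower probes; the deposited values gave 0 and 0 as well, and an offset of 50, detection on every array and the brightest probe per gene gave 0 lower for the genotype difference. Normalizing without the WT vehicle array, an alternative chosen after seeing the data, left both of these counts as they were. The WT response had 1 lower probe with no background correction or an offset of 50. It had 10 higher, 0 lower and a median of 0.34 with median scaling, and 8, 0 and 0.41 on the deposited values. Over all 8133 named probes, median scaling gave 2539 higher and 13 lower, and the deposited values gave 2139 and 2. The WT response had 1 higher and 1 lower calcium or channel probe with detection on both arrays, and 1 higher with the brightest probe per gene. The vehicle comparison of the genotypes had 8 higher, 0 lower and a median of 0.31 with median scaling, 3 lower with scaling to detected probes, and 0 lower and a median of 0.45 on the deposited values. Among all 8102 named probes 2234 were higher with median scaling, 457 lower with scaling to detected probes and 0 lower on the deposited values. The difference of responses had 1 higher with no background correction, an offset of 50 or detection on every array. It had 0 higher, 12 lower and a median of -0.43 with median scaling, and 0 higher and 7 lower on the deposited values. Over all 8754 named probes, median scaling gave 90 higher and 2593 lower, and the deposited values gave 3 and 1731. Of all calls in the WT response 70% were higher, and 99.5% with median scaling, 45.3% with scaling to detected probes and 99.9% on the deposited values. In the same order, the shares were 72.7%, 99.7%, 46.0% and 100% for the genotypes under vehicle, 38.9%, 3.35%, 64.2% and 0.173% for the difference of responses, and 54.6%, 68.2%, 60.2% and 88.9% for the CM-MRKO response. For the genotypes under DOC/salt 44.1% of calls were higher, and 71.1% on the deposited values. The additive fit called 2 probes for genotype with an offset of 50 (Atp2a2 probe 1 and Pln) and 1 for treatment. Median scaling, scaling to detected probes, the deposited values and detection on all arrays gave 1 for each term, Atp2a2 probe 1. Over all 9272 probes an offset of 50 called 52 for genotype and 51 for treatment. In the same order, median scaling called 32 and 42, scaling to detected probes 38 and 39, and the deposited values 21 and 29. No called probe of the 37 genes changed sign under these alternatives, whereas Micu2 and Srl, of the other list, were lower after normalization and higher on the deposited values. No paired analysis was possible because each group has 1 array and the labels carry no replicate numbers; leaving out an array leaves the additive fit no residual degrees of freedom.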
